A study of Homo sapiens with 15 samples.

Results

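The genes described here are 54 regulators and effectors of the cell cycle: 9 G1 regulators (D cyclins, their kinases CDK4 and CDK6, CDK2 and CDK inhibitors), 23 genes of the G1/S transition and DNA replication, and 22 genes of G2 and mitosis. They were taken by symbol from the raw count table of the series, which holds 61533 gene identifiers, and all 54 passed the filter on low counts, with 18391 genes tested. The RNA-seq study asked how condensates of YAP-MAML2, an oncogenic fusion of the Hippo effector YAP with the Notch coactivator MAML2, alter transcription. Polyadenylated RNA was sequenced from 15 libraries, 3 in each of 5 groups, with 14720387 to 24797509 counts per library.

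All cells were HEK293 in the study's text and HEK293T in the sample labels, an embryonic kidney line with neuronal gene expression. Condensed cells were the stable SPARK-OFF line given DMSO for 5 h, in which FKBP-tagged YAP-MAML2 forms condensates and mCherry-Frb stays apart from it. Diffuse cells were the same line given rapamycin for 5 h, which joins FKBP to Frb, brings mCherry to the fusion and dissolves the condensates. The no-mCherry cells carried the tagged fusion without mCherry and received DMSO or rapamycin for 5 h. The eGFP cells expressed eGFP without YAP-MAML2 and were mock-treated, with no duration given. In a comparison with them, fusion, cell line and the DMSO or rapamycin given therefore cannot be told apart. For the no-mCherry libraries with DMSO, the title and treatment labels name DMSO while the description names rapamycin, and the former were followed. Nothing states that the 3 libraries of a group came from separate cultures, and the p-values here cover the spread among libraries alone, which may be technical.

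D-type cyclins with CDK4 or CDK6 phosphorylate the retinoblastoma protein RB in G1, which frees E2F factors to transcribe the genes of DNA replication. CDK inhibitors of the INK4 family (CDKN2A to CDKN2D) block CDK4 and CDK6, and those of the CIP/KIP family (CDKN1A, CDKN1B, CDKN1C) act on several cyclin-CDK pairs. G2/M genes are transcribed later, under the MuvB complex with MYBL2 and FOXM1. HEK293 cells carry adenovirus oncoproteins that bind RB and p53, and HEK293T cells also carry SV40 large T antigen, so these checkpoints are altered in all 5 groups.

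MAML2 CPM, which reads the transgene, was 395, 442 and 409 in condensed, 553, 563 and 504 in diffuse, 199, 225 and 237 in no-mCherry DMSO, 261, 230 and 238 in no-mCherry rapamycin, and 3.81, 4.30 and 2.77 in eGFP libraries. The transgene was therefore present in the groups labelled with it, at a lower level in the no-mCherry line. The third no-mCherry DMSO library stood apart, with a mean correlation of 0.9873 to its group (0.9899 to 0.9934 for the others) and the lowest TMM factor (0.901), and results that rest on it are given with and without it. At an adjusted p under 0.05 (edgeR), 8 of the 10 HEK293 lineage markers were higher in the eGFP than in the condensed cells, beside 14.1% of all genes. NEFL, a neurofilament gene, was at 90, 79.8 and 100 CPM in eGFP against 44.2, 40.6 and 42.4 in condensed libraries. The 10 markers summed to 596 to 652 CPM in eGFP, 358 to 386 in condensed, 393 to 408 in diffuse, 399 to 499 in no-mCherry DMSO and 511 to 547 in no-mCherry rapamycin libraries, and none was at 0. The part of that shift in the results below was not tested. Of 12 markers of other cell types, CD3E and INS were at 0 in all libraries and the highest of the rest was COL1A1, at 14.9 to 34.4 CPM. Of the 6 that could be tested, CD14, CDH5 and DCN were higher and COL1A1 lower in condensed than in eGFP cells at that threshold. Of all genes, 13% were higher and 14.1% lower. CD14, CDH5 and DCN were each at 2.27 CPM or less in every library. In diffuse against eGFP cells 2 of the 6 were higher and 1 lower, beside 11.4% and 12.5% of all genes. The part of these markers in the results was not tested. The share of counts from mitochondrially encoded mRNA was 2.16% to 2.57% in condensed and diffuse cells, and 2.77% to 3.10% in eGFP and no-mCherry cells.

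Promoters bring out how the G1/S and G2/M genes differ in sequence, a property the choice of members did not use. RefSeq promoters (GRCh38.p14, 250 bases before to 50 after a start) were found for 42 of the 54 members, as 61 windows. AURKA, BIRC5, CCND1, CCND2, CCNE2, CDK2, CDKN1C, E2F8, FOXM1, MCM4, MCM5 and TPX2 had none. Shown are the 150 bases upstream of the start of CDKN1A, the member with the smallest p-value in condensed against eGFP cells, CCNB2, which had the largest fold change there of the 22 G2/M members, and CDT1, a replication licensing factor chosen after its values were seen. All 3 lie on the + strand, at chr6:36678564-36678713, chr15:59104996-59105145 and chr16:88803639-88803788 in that order, and capitals mark the letters searched.
CDKN1A: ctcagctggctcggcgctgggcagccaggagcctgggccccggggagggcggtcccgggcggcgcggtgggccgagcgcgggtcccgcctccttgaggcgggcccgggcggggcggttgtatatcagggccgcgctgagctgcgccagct
CCNB2: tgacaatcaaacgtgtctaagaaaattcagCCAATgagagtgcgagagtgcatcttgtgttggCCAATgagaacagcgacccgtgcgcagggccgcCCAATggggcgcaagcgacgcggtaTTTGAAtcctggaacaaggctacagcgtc
CDT1: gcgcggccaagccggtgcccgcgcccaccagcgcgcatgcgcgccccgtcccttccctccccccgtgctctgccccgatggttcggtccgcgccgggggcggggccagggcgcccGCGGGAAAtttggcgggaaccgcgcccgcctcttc

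In CCNB2, which encodes a mitotic cyclin, TTTGAA (the cell cycle homology region, CHR) begins 29 bases before the start, and CCAAT, read by NF-Y, begins 54, 87 and 120 bases before it. In CDT1, the E2F letters TTTCCCGC lie on the opposite strand, with their leftmost base 35 before the start. The CDKN1A stretch holds none of the letters searched. E2F letters (TTTCCCGC, TTTGGCGC, TTTCGCGC or TTTGCCGC, both strands) were in 11 of 25 G1/S windows (44%, 95% Wilson interval 26.7% to 62.9%), 2 of 26 G2/M windows (7.69%, 2.14% to 24.1%) and 3.31% of all 35116 promoters. CHR letters (TTTGAA or TTCGAA, both strands) had the opposite pattern, with 2 of 25 G1/S windows (8%, 2.22% to 25%), 15 of 26 G2/M windows (57.7%, 38.9% to 74.5%) and 16.4% of all promoters. CCAAT was in 72% of G1/S and 76.9% of G2/M windows against 34.6% of all promoters, and no motif searched contains the letters of another. GGAATG, the TEAD letters through which YAP reaches DNA, was in 1 G1/S, 3 G2/M and 3 of 10 G1 regulator windows, against 14% of all promoters. Windows of a gene with several starts can overlap, and a match is not a bound site. The intervals treat windows as independent, though the G1/S windows come from 19 genes and the G2/M windows from 18. Both G2/M windows with E2F letters belong to CDK1, and the G1 regulator windows with TEAD letters to CCND3 and CDKN2C.

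The eGFP cells give the reference levels. Per kilobase of exon, PCNA, the replication clamp, was the highest of the 54 at 312 ± 34.4 CPM per kb (SD, n = 3), followed by TOP2A, the topoisomerase of mitotic chromosomes, at 159 ± 12.7. Below them MCM7 (98.1 ± 5.04), RRM1 (91.8 ± 10.3) and MYBL2 (85.5 ± 5.30) followed, and RRM1 lay within its spread of both of its neighbours. The D cyclins were near the bottom, at 10.1 ± 0.696 for CCND3, 5.79 ± 0.124 for CCND1 and 4.56 ± 0.330 for CCND2, and E2F2, an activating E2F, was the lowest at 1.68 ± 0.190. Low levels bear on precision: CDKN1C had 19 to 92 counts per library, E2F2 95 to 199. The strand setting of the counting is not given, and 5 members share at least 20% of their exon bases with a gene on the opposite strand. These are CDK4 (44.2%, TSPAN31), TYMS (39.9%, ENOSF1), CCNE2 (37%, INTS8), MCM2 (23.6%) and CDKN2C (20.4%), so that reads of the partner cannot be told apart in them.

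Condensed against eGFP cells shows the cell cycle genes of cells with phase-separated YAP-MAML2 beside cells without it. Among the members, CCND1, CDK6, CDKN1A and CDKN1C of the G1 regulators all fell, by 0.75 or more on the log2 scale, while the calls among the G1/S and G2/M members lay between -0.29 and 0.54. Of the 54 members 10 were higher and 6 lower at an adjusted p under 0.05 (edgeR quasi-likelihood test, Benjamini-Hochberg over all genes), where 13% of all genes were higher and 14.1% lower. At the DEG thresholds (P under 0.01, absolute log2 fold change of at least 0.58, FDR under 0.1), 0 members were higher and 4 lower, where 6.23% and 6.97% of all genes were. At an unadjusted p under 0.05 15 were higher, and DESeq2 called 11 higher and 6 lower at its adjusted p.

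CCND1, cyclin D1 (chr11:69641156-69654474 in hg38, GENCODE v44), was at 12.6, 18 and 16.8 CPM in condensed and 27.2, 28.2 and 27.2 in eGFP libraries. Every condensed library was below every eGFP library, with a log2 fold change of -0.81 ± 0.172 (SE, adjusted p = 0.00127). CDK6, its kinase partner (chr7:92604921-92836573), was at 32.3, 46.1 and 42.8 CPM against 63.1, 65.5 and 75.2. The groups did not overlap and the log2 fold change was -0.75 ± 0.124 (SE, adjusted p = 0.000105). The other D cyclins and CDK4 were not called, with log2 fold changes of 0.00 for CCND2, 0.06 for CCND3 and -0.14 for CDK4.

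CDKN1A, which encodes p21 (chr6:36676460-36687337), was at 61.4, 55.2 and 56.1 CPM in condensed and 98.8, 102 and 98.7 in eGFP libraries, again with no overlap. Its log2 fold change was -0.79 ± 0.0843 (SE, adjusted p = 3.72e-07). CDKN1C, which encodes p57 (chr11:2883213-2885775), was at 1.78, 2.82 and 1.22 CPM against 4.75, 5.25 and 5.28, a log2 fold change of -1.38 ± 0.287 (SE, adjusted p = 0.000953). CDKN2C, which encodes the INK4 protein p18 (chr1:50960745-50974634), went the other way, at 76.6, 63.7 and 82.9 CPM against 60.1, 54 and 53.6, with every condensed library above every eGFP library. Its log2 fold change was 0.41 ± 0.0962 (SE, adjusted p = 0.00277).

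**Figure D1:**
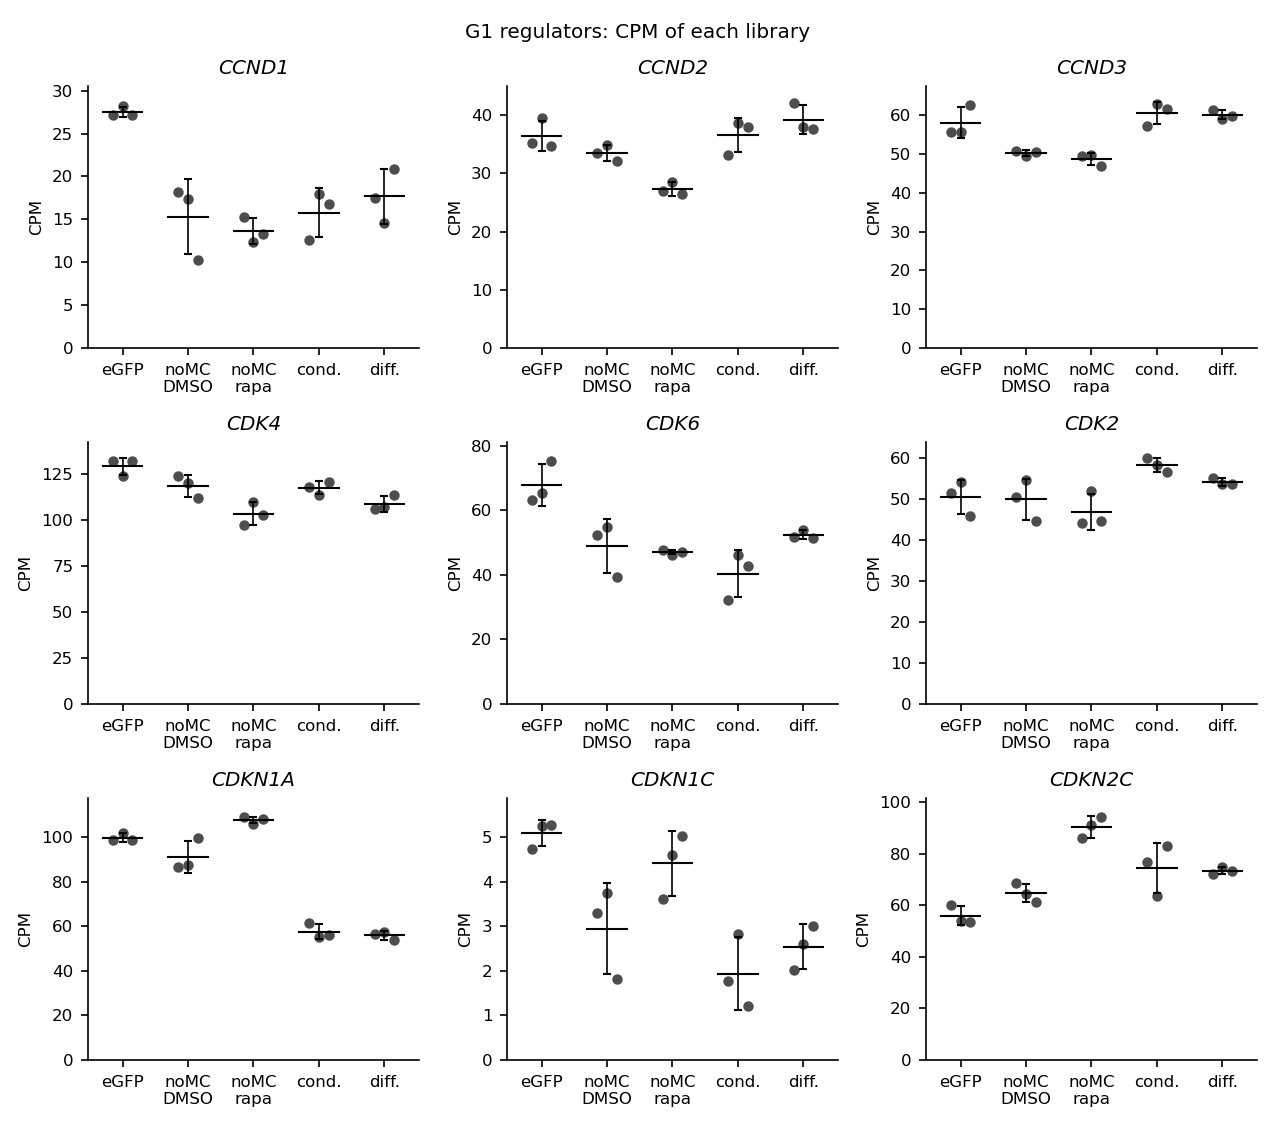
CPM (y axis, linear from 0) of the 9 G1 regulators in each library of the 5 groups (x axis: eGFP, no-mCherry [noMC] with DMSO or rapamycin, condensed, diffuse), with bars for the mean and SD of 3 libraries. CDKN1A lies at 53.8 to 61.4 CPM in the 6 SPARK-OFF libraries and at 86.4 to 109 in the other 9.

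Of the 23 G1/S members 2 rose (8.7%), a share near that of all genes. CCNE2, cyclin E2, which drives entry into S phase with CDK2, was at 26.9, 23.8 and 23 CPM in condensed and 18.6, 16.9 and 15.2 in eGFP libraries, a log2 fold change of 0.54 ± 0.131 (SE, adjusted p = 0.00355). CDC25A, the phosphatase that activates CDK2, was at 207, 225 and 216 CPM against 171, 171 and 172, a log2 fold change of 0.33 ± 0.0819 (SE, adjusted p = 0.00421). Neither gene's groups overlapped. None of MCM2 to MCM7, the subunits of the replicative helicase, was called, with log2 fold changes from -0.11 to 0.12, 0 at an unadjusted p under 0.05 and 0 with DESeq2. The 23 had a median log2 fold change of 0.09 and all genes tested one of 0.00.

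Among the 22 G2/M members 7 rose (31.8%, beside 13% of all genes) and 2 fell (9.09%, beside 14.1%), with a median of 0.03. CCNB2 was at 98.0, 97.0 and 86.9 CPM in condensed and 71.3, 72.2 and 63.8 in eGFP libraries, with no overlap and a log2 fold change of 0.44 ± 0.0903 (SE, adjusted p = 0.00083). The other increases were KIF23 (0.32), a kinesin of cytokinesis, CCNA2 (0.31), the cyclin of S phase and G2, BIRC5 (0.30), a subunit of the chromosomal passenger complex, AURKA (0.28), the kinase of spindle poles, KIF11 (0.25), the kinesin that separates them, and CCNB1 (0.25). The decreases were CENPF (-0.29, adjusted p = 0.0367), a kinetochore protein, and AURKB (-0.26, adjusted p = 0.0257), the kinase of the passenger complex, so that AURKB and its partner BIRC5 moved in opposite directions. CENPF overlapped between the groups. Both decreases lost the call without the first or the third condensed library or the second eGFP library. Of the increases, CCNB2 and BIRC5 kept the call in all 20 alternative fits. CCNB1 and KIF11 each lost it in 6 of them, CCNA2 in 4, AURKA in 3 and KIF23 in 1. The proliferation marker MKI67 (-0.11, adjusted p = 0.60), TOP2A (-0.04, adjusted p = 0.80) and FOXM1 (-0.01, adjusted p = 0.95) were not called. The count of 10 increases was 6 without the third condensed library.

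**Figure D2:**
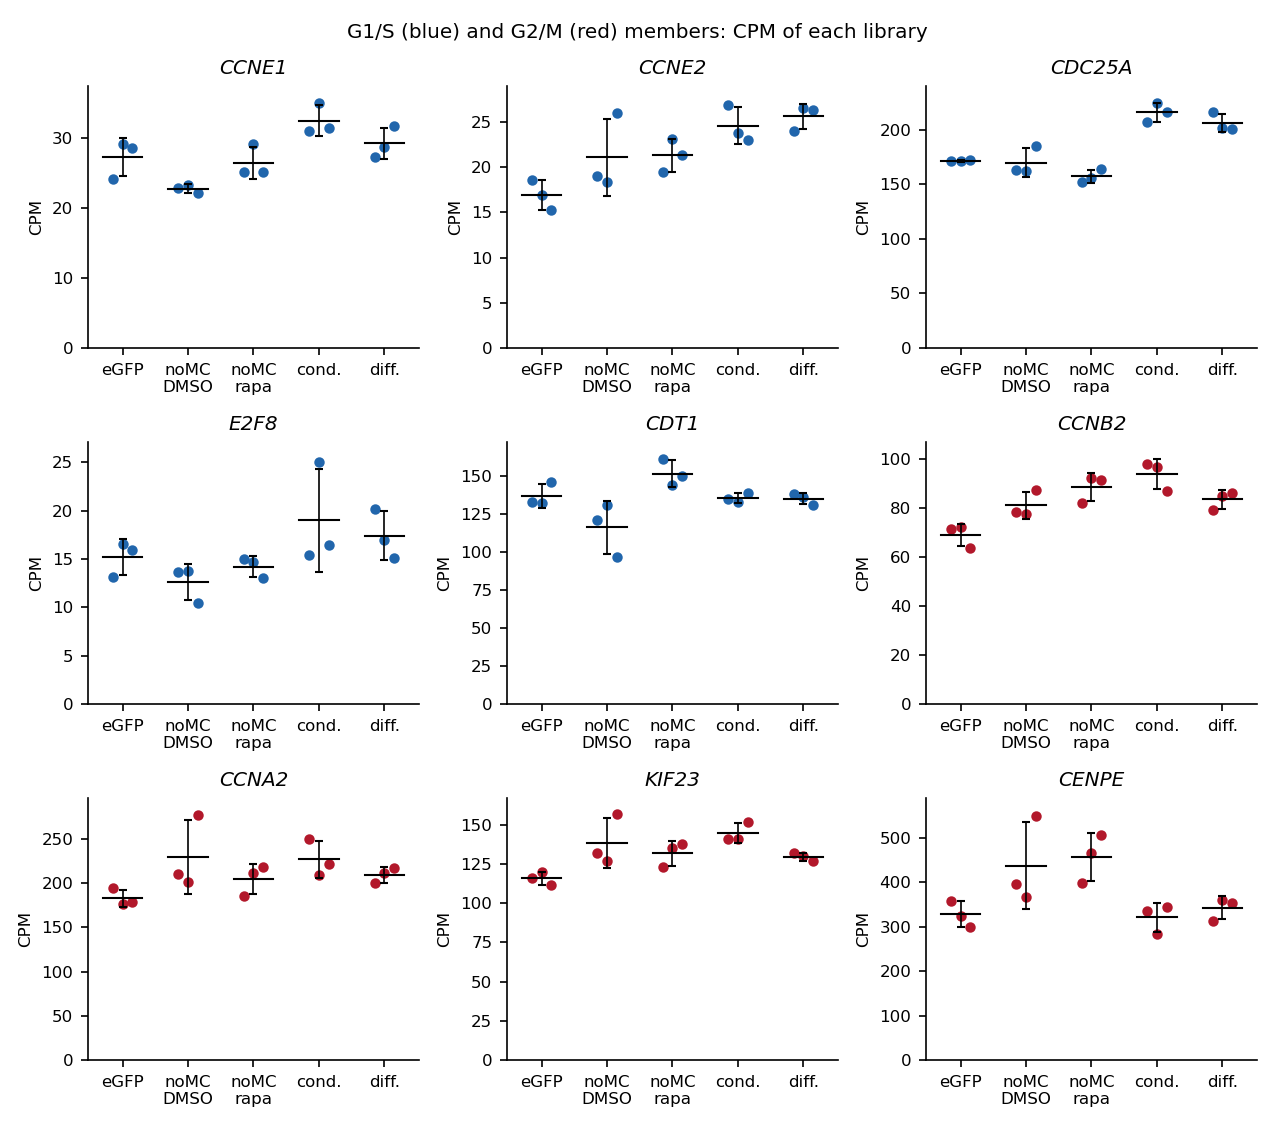
CPM (y axis, linear from 0) of 5 G1/S members (blue) and 4 G2/M members (red) in each library of the 5 groups (x axis), with bars for the mean and SD of 3 libraries. CCNB2 lies at 86.9 to 98.0 CPM in condensed libraries, above the 63.8 to 72.2 of the eGFP libraries.

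Other genes of the pathway were read from lists written beside the members. One list held 31 further regulators: cyclins, CDKs, inhibitors, pocket proteins, E2F and MuvB subunits with MYC, PLK2, PLK3 and others. Of these 13 were higher (41.9%, beside 13% of all genes) and 5 lower (16.1%, beside 14.1%) in condensed cells. CDKN1B, which encodes the inhibitor p27, was at 113, 101 and 111 CPM in condensed and 53, 58.5 and 47.2 in eGFP libraries (log2 fold change 1.03, adjusted p = 4.64e-08), so that the 3 CIP/KIP genes did not move together. Of the INK4 genes, CDKN2B (1.17, adjusted p = 9.69e-07) and CDKN2D (1.01, adjusted p = 0.000564) rose as CDKN2C did. CDKN2A, on the same list, was not past the DEG thresholds, which CDKN2C did not pass either. PLK2, a stress-responsive polo-like kinase (1.86, adjusted p = 3.98e-08), and CCNA1, the germline cyclin A (1.86, adjusted p = 0.00125, at 0.354 to 2.55 CPM), also rose, while MYC (-0.75, adjusted p = 1.21e-05) and PLK3 (-1.04, adjusted p = 0.000483) fell.

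Of 20 p53 target genes other than CDKN1A, with PLK3 on both lists, 8 were lower (40%, beside 14.1% of all genes) and 1 higher (5%, beside 13%). Their median log2 fold change was -0.16. They included MDM2, the ubiquitin ligase of p53, at 101, 121 and 98.2 CPM against 176, 179 and 198 (-0.79, adjusted p = 2.36e-06), and FDXR, a mitochondrial reductase (-0.94, adjusted p = 2.77e-07). Of 41 further G2/M genes 12 were higher (29.3%) and 0 lower (1 lower at an unadjusted p under 0.05), led by CKAP2L (0.74), HJURP (0.66) and CDCA2 (0.58). Of 35 further G1/S genes 4 were higher (11.4%) and 1 lower (2.86%).

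Diffuse against eGFP cells sets cells with dissolved condensates beside cells without the fusion. The diffuse cells also received rapamycin, which the eGFP cells did not, and it cannot be told apart here from the fusion and the line. The G1 regulators again made up most of the decreases, and 2 of the 22 G2/M members were called, while 10 of 41 further G2/M genes were higher and 0 lower (0 lower at an unadjusted p under 0.05). At an unadjusted p under 0.05, 3 G2/M members were higher and 4 lower, beside 7 and 3 in condensed against eGFP cells. DESeq2 also called BIRC5 (0.22, adjusted p = 0.00739) and BUB1B (-0.235, adjusted p = 0.0486) of the G2/M members. Here 4 members were higher and 7 lower, where 11.4% of all genes were higher and 12.5% lower, and 1 was higher and 3 lower at the DEG thresholds, where 6.1% and 5.5% were. CDKN1A was at 56.7, 57.6 and 53.8 CPM, below the eGFP values without overlap (-0.83 ± 0.0841 SE, adjusted p = 1.88e-07). CCND1 was at 17.5, 14.6 and 20.9 CPM (-0.63, adjusted p = 0.00875) and CDKN1C at 2.02, 2.61 and 3.01 CPM (-0.98, adjusted p = 0.0111), and neither overlapped the eGFP libraries. Without the second diffuse library the adjusted p of CCND1 was 0.0623, and without the first that of CDKN1C was 0.0531.

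CCNE2, at 24.0, 26.5 and 26.3 CPM, was the member past the DEG thresholds upward (0.60 ± 0.130 SE, adjusted p = 0.00168). CDKN2C (0.39), CCNB2 (0.27) and CDC25A (0.27) were the other increases. CDK6 (-0.37), CDC45, a helicase cofactor (-0.27), AURKB (-0.25) and CDK4 (-0.25) were the other decreases. The median log2 fold change was -0.25 for the 9 G1 regulators, 0.01 for G1/S and 0.04 for G2/M, and 0.01 for all genes. Of 20 p53 targets 7 were lower (35%, beside 12.5% of all genes) and 1 higher (5%, beside 11.4%). The increase was GADD45A, a growth arrest gene (0.71, adjusted p = 2.39e-06). CDKN1B (0.95, adjusted p = 1.79e-07) and CDKN2B (1.13, adjusted p = 1.53e-06) were higher in these libraries too, which were compared with the same eGFP libraries as the condensed ones. The count of 7 decreases was 2 without the first or the second diffuse library, 4 without the first or the third eGFP library and 3 without the second, and the count of 4 increases was 2 without the third eGFP library.

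**Figure D3:**
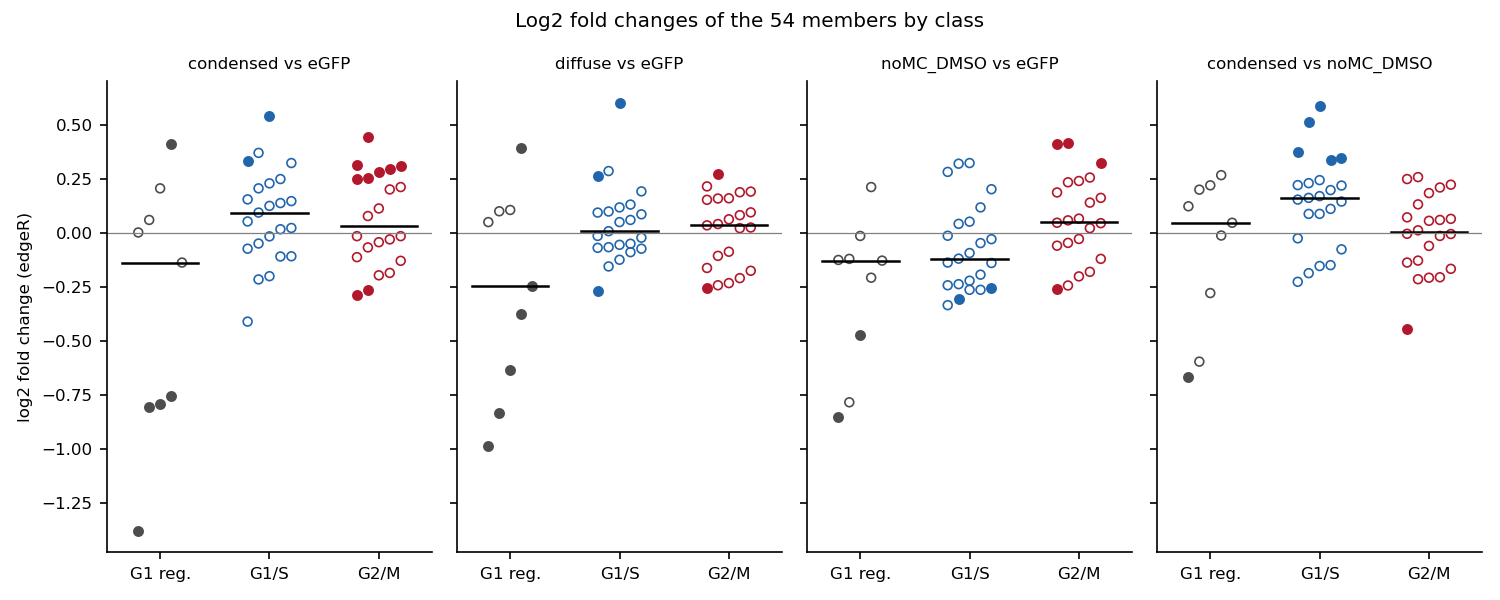
Log2 fold change (y axis, edgeR) of the 54 members by class (x axis) in 4 comparisons, with filled points for an adjusted p under 0.05, open points for the rest and a line for the class median. G1 regulators reach from -1.38 to 0.41 in condensed against eGFP cells, while G1/S members lie between -0.41 and 0.54 and G2/M members between -0.29 and 0.44.

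The no-mCherry cells with DMSO carry the tagged fusion at a lower transgene level. Against eGFP cells, 3 members were higher and 5 lower, where 7.08% of all genes were higher and 6.41% lower, and 0 were higher and 2 lower (CCND1, CDKN1C) at the DEG thresholds, where 3.33% and 2.53% were. At an unadjusted p under 0.05, 10 were higher, and DESeq2 called 5 higher. CCND1 was at 18.2, 17.4 and 10.3 CPM, all below the eGFP libraries (-0.85 ± 0.173 SE, adjusted p = 0.00324), and at -0.63 without the third library (adjusted p = 0.0117). CDK6 was at 52.3, 55.0 and 39.4 CPM (-0.47, adjusted p = 0.0146), and at -0.34 without the third library (adjusted p = 0.0772). CDKN1C, at 3.30, 3.75 and 1.81 CPM, had a log2 fold change of -0.78 with an adjusted p of 0.0602. Without the third library CDKN1C was at -0.53 (adjusted p = 0.295).

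CDKN1A differed from its pattern in the SPARK-OFF line, at 86.4, 87.7 and 99.5 CPM against 98.8, 102 and 98.7 in eGFP cells (-0.13, adjusted p = 0.321). The groups overlapped through the third library alone. Without that library CDKN1A was at -0.20 and still not called (adjusted p = 0.166). MCM2 (-0.31), MCM4 (-0.25) and AURKB (-0.26) were lower and CDK1, the mitotic kinase (0.41), CENPE, the kinetochore kinesin (0.41), and CCNA2 (0.32) higher. These increases rested on the third library, where CDK1 was at 539 CPM against 389 and 358 and CENPE at 548 against 396 and 366. Without it 0 members were higher and 1, CCND1, was lower. With all libraries, 0 of 20 p53 targets were lower (2 at an unadjusted p under 0.05) and 1 higher (5%). Further G2/M genes were higher in 11 of 41 (26.8%) and lower in 0 (2 at an unadjusted p under 0.05). Of all genes, 7.08% were higher and 6.41% lower. CDKN1B (0.67, adjusted p = 9.8e-05) and CDKN2B (0.74, adjusted p = 0.0014) were higher. The 3 increases numbered 0 without the second or the third eGFP library and 1 without the third condensed, any diffuse, or the second or the third no-mCherry rapamycin library, and 6 without the second no-mCherry DMSO library. The 5 decreases numbered 3 without the second diffuse, 2 without the second eGFP and 1 without the third eGFP library.

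Condensed against no-mCherry DMSO cells compares both fusion lines under DMSO, which differ in mCherry, transgene level and line, and these cannot be told apart. 5 members were higher and 2 lower, where 3.78% of all genes were higher and 3.25% lower, and 1 was higher and 1 lower at the DEG thresholds, where 2.66% and 1.85% were. All 5 increases were G1/S genes, 5 of 23, and their median log2 fold change was 0.16 beside 0.00 for G2/M and -0.02 for all genes. Of the 35 further G1/S genes 1 was higher and 1 lower, with a median of 0.01, and the 8 increases by DESeq2 included BIRC5 of G2/M and CCND3 of the G1 regulators. CCNE1, cyclin E1, was at 31.0, 35 and 31.4 CPM in condensed and 22.9, 23.3 and 22.1 in no-mCherry libraries, with no overlap (0.51 ± 0.106 SE, adjusted p = 0.00448). E2F8, an atypical E2F that represses E2F targets, was at 15.4, 25.1 and 16.5 CPM against 13.7, 13.8 and 10.5 (0.59 ± 0.169 SE, adjusted p = 0.0365). RRM2, the regulated subunit of ribonucleotide reductase (0.38), CDC25A (0.34) and MYBL2 (0.34) were the others.

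CDKN1A was lower in the condensed cells (-0.66 ± 0.0844 SE, adjusted p = 2.02e-05) and the 3 condensed libraries, at 55.2 to 61.4 CPM, lay below the 3 no-mCherry libraries. Of 20 p53 targets 6 were lower (30%, beside 3.25% of all genes) and 1 higher (5%, beside 3.78%). Among the decreases were MDM2 (-0.73, adjusted p = 3.01e-05), FDXR (-0.70, adjusted p = 6.68e-05) and DDB2, a damage recognition factor (-0.60, adjusted p = 0.000167). CENPE fell (-0.44, adjusted p = 0.0349). Without the third no-mCherry DMSO library CDKN1A was at -0.60 (adjusted p = 2.03e-05), CCNE1 at 0.49 (adjusted p = 0.00695) and RRM2 at 0.32 (adjusted p = 0.0207), while E2F8 (adjusted p = 0.099), MYBL2 (adjusted p = 0.0619) and CENPE (adjusted p = 0.153) were no longer called. CDK6 was then lower (-0.41, adjusted p = 0.0208) and CCNE2 (0.40, adjusted p = 0.0353) and CDC6, a licensing factor (0.27, adjusted p = 0.0469), were higher. The 5 increases numbered 1 without the second condensed library and 3 without the first no-mCherry DMSO library, and the 2 decreases 1 without any of the 3 condensed libraries.

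Diffuse against condensed cells compares dissolved with intact condensates within the SPARK-OFF line. The groups also differ in rapamycin itself and in the transgene transcript, with MAML2 at 504 to 563 CPM in diffuse and 395 to 442 in condensed libraries, and these cannot be told apart. At the protein level, the study reported YAP-MAML2 as unchanged by dissolution, on a Western blot. No member was called: 0 were higher and 0 lower with edgeR and with DESeq2, where 0.0381% of all genes were higher and 0.0924% lower, and at an unadjusted p under 0.05 1 was higher and 0 lower. That gene was CDK6, at 51.8, 54 and 51.6 CPM in diffuse and 32.3, 46.1 and 42.8 in condensed libraries, without overlap (0.38 ± 0.124 SE, adjusted p = 0.554). Of the 54 log2 fold changes 40 were negative and 14 positive, with a median of -0.06 beside -0.01 for all genes. The members' values ran from -0.17 to 0.39 with a median standard error of 0.096. The 95% Wald interval lay within 0.58 of 0 in 51 of 54 members. CDK6, CDKN1C and E2F2 were the exceptions. CDKN1A, at -0.04, had an interval of -0.21 to 0.13, and CCND1, at 0.17, one of -0.17 to 0.51.

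The no-mCherry cells received the same rapamycin, an inhibitor of the kinase mTORC1, but have no mCherry for it to bring to the condensates. There 2 members were higher and 0 lower, where 0.451% of all genes were higher and 1.17% lower. At an unadjusted p under 0.05, 10 were higher and 3 lower, and DESeq2 called 3 higher and 1 lower. CDKN2C was at 85.9, 91.1 and 94.2 CPM with rapamycin and 68.5, 64.4 and 61.3 with DMSO, and the groups did not overlap (0.48 ± 0.0953 SE, adjusted p = 0.00933). CDT1 was at 161, 144 and 150 CPM against 121, 131 and 96.6, also without overlap (0.39 ± 0.097 SE, adjusted p = 0.0447).

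Without the third no-mCherry DMSO library CDKN2C was at 0.45 (adjusted p = 0.0155) and CDT1 at 0.27 (adjusted p = 0.119). CDC25C, the phosphatase that activates CDK1, was then called (0.44, adjusted p = 0.0323). The 2 increases numbered 0 without the third no-mCherry rapamycin library. They numbered 1 without any condensed or diffuse library, the second or the third eGFP library, the first no-mCherry DMSO library, or the first or second no-mCherry rapamycin library. Of the members not called, CCND2 was at 27.0, 28.6 and 26.4 CPM with rapamycin and 33.5, 34.9 and 32.2 with DMSO, without overlap (-0.29, adjusted p = 0.136).

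The interaction, the rapamycin response of the SPARK-OFF line less that of the no-mCherry line, called 0 members higher and 0 lower, where 0.0272% of all genes were higher and 0.0707% lower. At an unadjusted p under 0.05 2 were higher and 8 lower, and DESeq2 called 0 higher and 1 lower. The largest was CDKN2C, whose response was -0.02 in the SPARK-OFF and 0.48 in the no-mCherry line, a difference of -0.50 ± 0.135 (SE, adjusted p = 0.236, and 0.0491 with DESeq2). CCND2 (0.40, adjusted p = 0.472), CDK6 (0.43, adjusted p = 0.59) and CDT1 (-0.39, adjusted p = 0.49) followed. These comparisons share no libraries, and 33 of 54 members (61.1%) had the same sign in both, beside 57.8% of all genes.

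**Figure D4:**
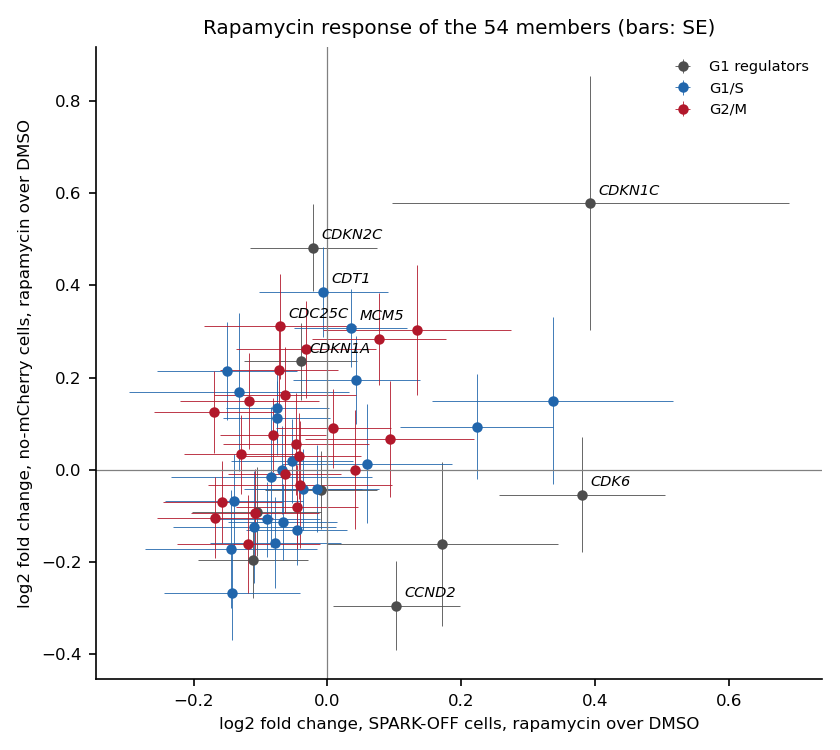
Log2 fold change of rapamycin over DMSO for the 54 members in SPARK-OFF cells (x axis) and no-mCherry cells (y axis), coloured by class, with standard errors as bars. CDKN2C lies at -0.02 on the x axis and 0.48 on the y axis, and CDK6 at 0.38 and -0.05.

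G1/S and G2/M members were compared within each library by the median of their log2(CPM + 0.5), centred per gene over all libraries. The difference, G1/S less G2/M, was 0.05, 0.06 and 0.13 in eGFP, 0.05, 0.09 and 0.04 in condensed and 0.13, 0.08 and 0.03 in diffuse libraries. In the no-mCherry libraries it was -0.08, -0.03 and -0.20 with DMSO and -0.12, -0.11 and -0.09 with rapamycin. All 6 no-mCherry libraries thus lay below the other 9, also without the third DMSO library, and the eGFP, condensed and diffuse libraries overlapped. As the difference of the median log2 fold changes, it was 0.06 for condensed against eGFP, -0.03 for diffuse against eGFP, -0.17 for no-mCherry DMSO against eGFP and 0.16 for condensed against no-mCherry DMSO cells. For rapamycin it was -0.01 in the SPARK-OFF and -0.06 in the no-mCherry line. The medians of the further G1/S and G2/M genes were 0.06 and 0.23 for no-mCherry DMSO against eGFP cells, where the members had -0.12 and 0.05. They were 0.09 and 0.14 for condensed against eGFP and 0.01 and 0.02 for condensed against no-mCherry DMSO cells. In each of these the G2/M median of the further genes was the higher. Among the members it was the higher, of these, only for no-mCherry DMSO against eGFP cells. The members are not replicates of a condition, so these values are a description, and shares of cells in a phase were not measured.

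**Figure D5:**
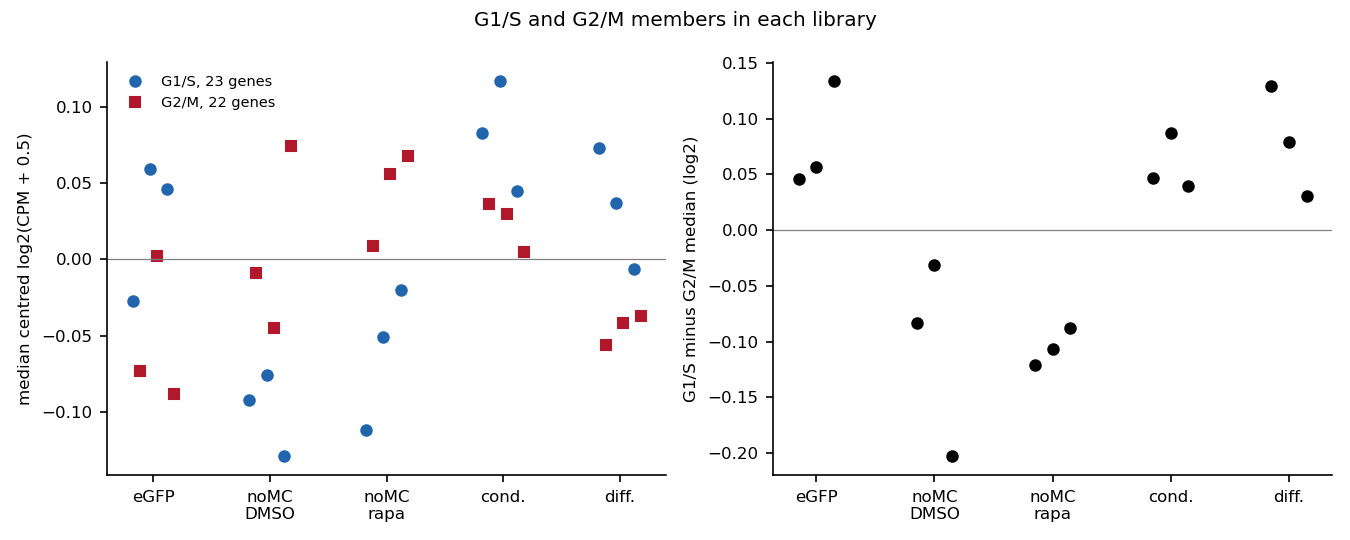
Left, the median centred log2(CPM + 0.5) of G1/S (circles) and G2/M members (squares) in each library by group (x axis), and right, their difference in each library. The difference lies between 0.03 and 0.13 in the eGFP, condensed and diffuse libraries and between -0.20 and -0.03 in the no-mCherry libraries.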

How the data were processed

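RNA was polyA-selected from the 15 libraries, and groups followed the titles and treatment labels. The deposited table holds raw read counts per gene, with no normalization by the authors. Per the study's methods, fastp did the trimming and STAR the alignment, to hg38. FastQC, HTSeq and edgeR are also listed, unversioned, in the submitters' processing notes. The sources used here give neither the annotation nor the strand setting. Identifiers were matched without version to GENCODE v44 (61369 of 61533 matched). Counts were fitted over all 15 libraries in edgeR 4.0.16 (R 4.3.3): filterByExpr, TMM factors of 0.901 to 1.05, quasi-likelihood test per contrast, and Benjamini-Hochberg over 18391 genes. The common biological coefficient of variation was 0.111. CPM use TMM-scaled library sizes, and standard errors are Wald errors of the fit. Calls were made at an adjusted p under 0.05, and DEG thresholds were those of the study. The fit was tested on simulated counts. The members and lists were chosen with earlier results of these data known. Members past the DEG thresholds were named first, then those called, up to 12 in each direction, and at most 5 genes per direction and list of the pathway lists. DESeq2 1.42.0, RLE factors, no expression filter, a replicate block, fits of only the groups compared and fits without each library were the alternatives, with MYBL2 counted as G2/M for the class medians and a shorter window or 1 spelling for the promoter letters. Replicate numbers were not used as a block, since only 6 of 30 same-numbered pairs correlated above 0.1 in their deviations from the group means. No pair of libraries agreed within sampling noise (chi-square per degree of freedom of 3.3 or more).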

Additional observations from a re-analysis of the deposited data

How the results depend on the processing

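Of the 44 single-gene calls in the report, 15 held and none reversed under all 20 alternatives, and 29 lost the call under at least 1. CDKN1A was called in every alternative in condensed and diffuse against eGFP and in condensed against no-mCherry DMSO cells, as were CCND1 and CDK6 in condensed against eGFP cells. Leaving out 1 library moved the members called higher from 6 to 13 in condensed, 2 to 6 in diffuse and 0 to 6 in no-mCherry DMSO against eGFP cells, 1 to 5 in condensed against no-mCherry DMSO cells and 0 to 3 for rapamycin in no-mCherry cells. Members called lower moved from 4 to 7, 2 to 9, 1 to 7 and 1 to 2 in the first 4 of these. Calls numbered 0 to 0 in diffuse against condensed cells, in the interaction and, for decreases, with rapamycin in no-mCherry cells.

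The difference of the G1/S and G2/M medians moved over -0.005 to 0.063 in condensed, -0.084 to 0.010 in diffuse and -0.2 to -0.154 in no-mCherry DMSO against eGFP cells. It moved over 0.119 to 0.165 in condensed against no-mCherry DMSO, -0.063 to 0.046 in diffuse against condensed, -0.136 to -0.014 for rapamycin in no-mCherry cells and 0.053 to 0.14 in the interaction. With MYBL2 counted as G2/M it was -0.004 in condensed against eGFP cells.

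Without an expression filter 2 members were higher and 4 lower in diffuse, and 3 lower in no-mCherry DMSO against eGFP cells. Fits of only the groups compared called 0 higher and 1 lower in no-mCherry DMSO against eGFP, 1 higher and 1 lower in condensed against no-mCherry DMSO, and 0 higher for rapamycin in no-mCherry cells. DESeq2 called 5 higher in no-mCherry DMSO against eGFP, 8 higher in condensed against no-mCherry DMSO, 1 lower for rapamycin in no-mCherry cells and 1 lower in the interaction. The cause was not tested. Same-numbered libraries correlated from -0.206 to 0.168 in their deviations (median -0.006), so the numbers do not pair them, and the replicate block called 1 higher in no-mCherry DMSO against eGFP and 1 higher for rapamycin in no-mCherry cells. With TTTCCCGC alone, E2F letters were in 20% of G1/S and 0% of G2/M promoters.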
